A study of Homo sapiens with 6 samples.

Results

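The genes described here are LIN28A, LIN28B, IGF2BP1, IGF2BP2, IGF2BP3, HMGA1, HMGA2, TRIM71 and L1TD1, RNA-binding and chromatin genes grouped with the let-7 microRNAs. They were taken by symbol from the deposited table, which lists 27672 genes, and all 9 were present and passed the filter on low counts. Polyadenylated RNA was sequenced from H9, an established human embryonic stem cell line, and the comparison asks how each gene differed between the undifferentiated cells and the caudal progenitor-like cells made from them. Undifferentiated cells (hESC, day 0, 3 libraries) were kept without feeder cells. By the labels their plates were coated with fibronectin and the medium was DEF, with Noggin at 10 ng/ml and bFGF at 30 ng/ml, but the study's methods name TESR and Geltrex instead. Neuromesodermal progenitor-like cells (NMP-L, day 3, 3 libraries) had spent 3 days in basal medium containing N2 and B27. To it CHIR99021 (3 µM), an activator of Wnt signalling, and bFGF (20 ng/ml) had been added. Their labels list no Noggin, a BMP inhibitor. The study's methods instead describe BMP and TGFβ inhibitors over a span of days that includes day 3. Both groups are wild type by the names of their columns and come from a single line. The labels call the libraries biological replicates and do not say whether each was a separate culture, so the p-values measure the spread between these libraries.

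LIN28A and LIN28B bind the precursors of let-7 microRNAs and block their maturation, and their own transcripts carry let-7 sites, so that the proteins and the microRNAs hold each other down. IGF2BP1, IGF2BP2 and IGF2BP3 bind and stabilise transcripts, HMGA1 and HMGA2 are architectural chromatin proteins that bind AT-rich DNA, TRIM71 is the vertebrate relative of the worm let-7 target lin-41, and L1TD1 is an RNA-binding protein of pluripotent cells derived from a LINE-1 element. Most of these genes are called oncofetal because they are active in embryonic tissue, silent in most adult tissue and active again in some tumours.

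The let-7 family is shown first because its seed, the bases that pair with a target, is what links most of these genes. The RefSeq table used here (GRCh38.p14) holds 12 human let-7 family hairpin genes, miR-98 included, with 9 different mature sequences from the 5′ arm. All 9 share 1 seed (bases 2 to 8), which is in capitals in the 4 examples.
hsa-let-7a-5p: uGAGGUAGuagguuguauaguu
hsa-let-7d-5p: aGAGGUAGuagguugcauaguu
hsa-let-7g-5p: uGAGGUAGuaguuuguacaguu
hsa-miR-98-5p: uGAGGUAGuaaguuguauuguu
LIN28 proteins are known to contact a GGAG motif between the arms of the hairpin. The letters GGAG lay between the arms in 9 of the 12 hairpins and not in let-7a-3, let-7b or miR-98. One hairpin of each kind is given, with GGAG in capitals.
let-7g hairpin: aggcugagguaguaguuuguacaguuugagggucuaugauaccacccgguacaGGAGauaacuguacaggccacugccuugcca
let-7a-3 hairpin: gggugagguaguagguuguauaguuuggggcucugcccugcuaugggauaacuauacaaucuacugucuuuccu

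The annotated 3′ UTR of each gene's canonical transcript (GENCODE 44 on GRCh37) was searched on its own strand for matches to this seed. CTACCTCA is an 8mer, CTACCTC without the final A a 7mer-m8, and TACCTCA without the leading C a 7mer-A1, each site being counted in 1 class only. The 9 UTRs held 31 matches, of which 13 were 8mers, 9 were 7mer-m8 and 9 were 7mer-A1. The windows below, with the match in capitals, show an 8mer of each RNA-binding gene family, the 8mer just after the stop codon of HMGA2, the only match of HMGA1, and the later member of a close pair of 8mers in TRIM71.
LIN28A, chr1:26753832-26753861, plus strand: ttggagtgcacagcctattgaaCTACCTCA
LIN28B, chr6:105526680-105526709, plus strand: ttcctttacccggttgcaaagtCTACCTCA
IGF2BP1, chr17:47128416-47128445, plus strand: gcaatgctgtgtgcgaagtaaaCTACCTCA
IGF2BP3, chr7:23351414-23351443, minus strand: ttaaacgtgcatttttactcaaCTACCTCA
HMGA2, chr12:66357073-66357100, plus strand: ggggcgccaacgttcgatttCTACCTCA
HMGA1, chr6:34213598-34213627, plus strand: tccatttttcctctgttcacaaaCTACCTC
TRIM71, chr3:32937313-32937342, plus strand: tacctcacttgtggcaagtcatCTACCTCA

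Matches were unevenly spread over the genes. TRIM71 had 8 in a UTR of 6013 bases, 4 of them 8mers, and the pair of which 1 is shown began at bases 4009 and 4032 of the UTR. HMGA2 had 7 in 2999 bases, the highest density of the group at 2.33 matches per kb. IGF2BP1 had 5 in 6701 bases with 3 8mers, and LIN28B had 5 in 4549 bases with 2 8mers. IGF2BP2 had 3 matches, 1 of them an 8mer. LIN28A and IGF2BP3 had a single 8mer each, HMGA1 a single 7mer-m8, and L1TD1 no match in 956 bases. An 8mer was thus present in 7 of the 9 genes and any match in 8.

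Among the 14122 tested genes with an annotated 3′ UTR, 4.29% held an 8mer, 18% held any match, and the density over all their UTRs was 0.111 per kb. Since long UTRs hold more matches, each gene was also set beside tested genes with a UTR within 20% of its own length. For HMGA2, 0.0534% of 1873 such genes had as many matches, and for TRIM71 0.117% of 855. The shares were 0.146% of 1372 for LIN28B, 0.356% of 1966 for IGF2BP2 and 0.741% of 675 for IGF2BP1. The smallest of these shares stand for very few genes, which may include the gene itself. The single matches of LIN28A, IGF2BP3 and HMGA1 were common at their lengths, with at least as many in 27.7%, 20.8% and 14% of genes. Only 11 tested genes had 5 or more matches, and 4 of them were TRIM71, HMGA2, IGF2BP1 and LIN28B. The genes described here were grouped with let-7 beforehand, so an excess of matches among them may follow from that choice. A match is a run of letters and not a measured site of let-7 binding, and no small RNA was measured here.

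The libraries held between 19454543 and 23036426 expected counts, and the 9 genes between 2023 and 67504 counts each, so counting error was smaller than the spread between libraries. By their markers the groups followed their labels. Of 7 pluripotency markers, 6 were lower in NMP-L and 0 higher, and their summed level fell from between 6780 and 7010 CPM (counts scaled to TMM-adjusted library size) to between 3150 and 3270 CPM. NANOG changed by -2.59 and POU5F1 by -0.92 on the log2 scale, while T, the gene of Brachyury, had 0, 0 and 2 counts in hESC and 537, 293 and 629 in NMP-L. Of 9 tested neuromesodermal markers, 6 were higher and 2 (FGF17 and TBX6) lower. Markers of other cell types also moved. FOXA2 was the only one of 5 endoderm markers above the filter. The summed endoderm level, nearly all FOXA2 in NMP-L, rose from between 0.801 and 1.78 CPM to between 13.4 and 22.6 CPM. SOX17 was at or under 3 counts in all 6 libraries. AFP had 4, 11 and 15 counts in hESC and 0 in each NMP-L library. GATA4 had 7, 8 and 15 counts in hESC and 5, 10 and 2 in NMP-L, and GATA6 3, 1 and 2 against 7, 6 and 3. The summed mesenchyme or neural crest level, nearly all COL1A1, fell from between 907 and 1050 CPM to between 81.3 and 90.4 CPM. Of the 4 tested markers of this list, 3 (COL1A1, PDGFRA and SOX10) were lower. The other, TWIST1, was higher, with 3 counts in each hESC library and 24, 37 and 22 in NMP-L. Of the neural markers 2 of 4 tested (SOX1 and HES5) were higher and TUBB3 lower, while PAX6 had at most 8 counts in any library. The part of these cell types in the values below was not tested, and in bulk RNA fewer cells with a transcript and less of it per cell cannot be told apart.

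Of the 9 genes, HMGA2 and IGF2BP1 were higher in NMP-L and IGF2BP3, HMGA1, TRIM71 and L1TD1 lower at an adjusted p under 0.05 (edgeR's quasi-likelihood test, Benjamini-Hochberg over all tested genes). LIN28A, LIN28B and IGF2BP2 did not pass. These 6 of 9 calls stand against 55.8% of all 15517 genes tested, the 2 rises against 29.1% and the 4 falls against 26.7%. The changes of HMGA2, TRIM71 and L1TD1 reached 2-fold, against 18.6% of tested genes. The share of the 9 genes called, 66.7%, was near the background. The shares of falls and of 2-fold changes were above theirs, but they rest on 4 and 3 genes and no set test was run. The group's median log2 fold change was -0.15 against 0.03 over all genes tested. On the CPM scale the libraries of the groups did not overlap for 7 of the 9 genes, against 61.6% of tested genes.

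**Figure D1:**
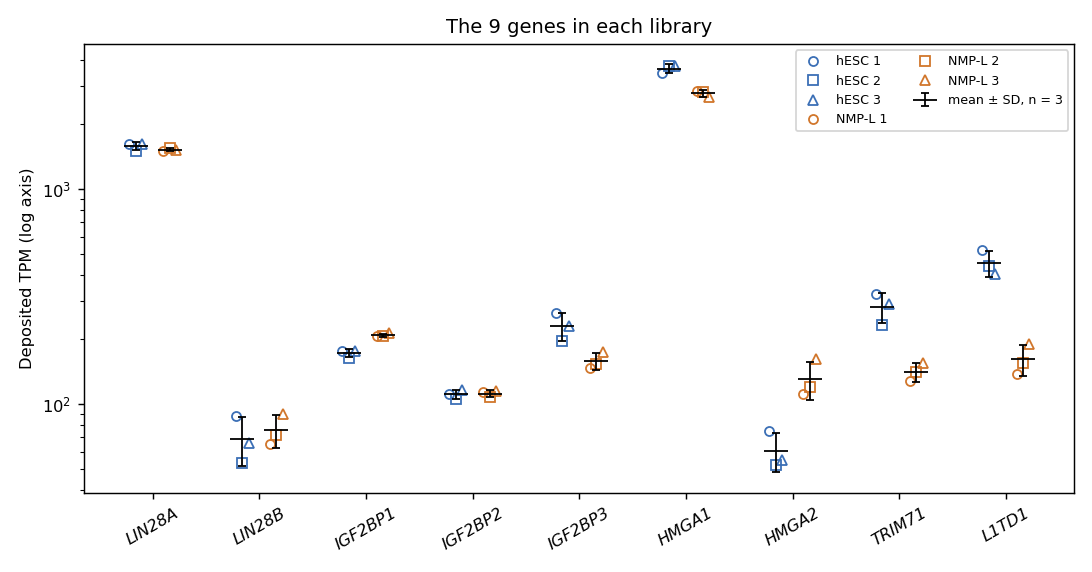
Deposited TPM (vertical, log axis) of the 9 genes in the 3 hESC libraries (blue) and 3 NMP-L libraries (orange), with a separate symbol for each library and the mean ± SD in black. The colours are separate for IGF2BP1, IGF2BP3, HMGA1, HMGA2, TRIM71 and L1TD1 and overlap for LIN28A, LIN28B and IGF2BP2.

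Levels of different genes were compared in TPM, the authors' values per transcript length. HMGA1 and LIN28A were far above the other genes in both groups. In hESC the order was HMGA1 (3633 ± 164 TPM, SD, n = 3), LIN28A (1580 ± 66.5), L1TD1 (453.6 ± 62.0), TRIM71 (283.8 ± 46.1), IGF2BP3 (231.0 ± 34.6), IGF2BP1 (172.7 ± 7.12), IGF2BP2 (110.8 ± 5.66), LIN28B (69.05 ± 17.7) and HMGA2 (60.62 ± 12.6). Of these neighbours, only TRIM71 and IGF2BP3 and then LIN28B and HMGA2 had overlapping libraries. In NMP-L the order was HMGA1 (2782 ± 103 TPM, SD, n = 3), LIN28A (1525 ± 29.3), IGF2BP1 (208.7 ± 3.70), L1TD1 (161.2 ± 26.8), IGF2BP3 (158.3 ± 14.9), TRIM71 (140.8 ± 13.7), HMGA2 (130.8 ± 26.6), IGF2BP2 (111.7 ± 3.95) and LIN28B (75.71 ± 13). Here each neighbour from L1TD1 to IGF2BP2 overlapped the next. IGF2BP1 stood above all of them, and LIN28B, the lowest, did not overlap IGF2BP2. HMGA1 ranked 35 among all genes by mean TPM in hESC and 56 in NMP-L, and LIN28A 104 and 93, whereas L1TD1 went from rank 283 to 930 and HMGA2 from 2557 to 1172.

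LIN28A, a factor used to reprogram cells to pluripotency, differed little between the groups. It lies on chromosome 1 of GRCh37 from 26737308 to 26756219. The hESC libraries measured 3153, 3033 and 3171 CPM and the NMP-L libraries 2824, 2938 and 2690 CPM. Every NMP-L library was lower on this scale, by a log2 fold change of -0.15 (SE 0.06, 95% interval -0.29 to -0.01) that missed the threshold after adjustment (adjusted p = 0.073). In TPM the groups overlapped. The fall passed the threshold under 6 of 20 other settings, among them RLE scaling (-0.17, adjusted p = 0.038), and relative to GAPDH counts the value was 0.41 (adjusted p = 0.0016), below the median of 0.59 that this scaling gave over all tested genes.

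LIN28B, its paralogue and likewise a repressor of let-7 maturation, showed no difference that these libraries could resolve. It lies on chromosome 6 from 105384491 to 105531207, and the levels were 235.7, 147.7 and 178.5 CPM in hESC and 168.3, 187.3 and 220.2 CPM in NMP-L. The groups overlapped fully and the log2 fold change was 0.04 (SE 0.15, adjusted p = 0.86), with a 95% interval from -0.29 to 0.37. Its sign was negative relative to HPRT1 counts (-0.25), without hESC replicate 2 (-0.11), hESC replicate 3 (-0.004) or NMP-L replicate 3 (-0.07), and after a correction for GC content and length (-0.16, adjusted p = 0.048). Relative to GAPDH counts it was 0.60 (adjusted p = 0.034). The medians of all tested genes were -0.27 and 0.59 under these reference genes. The LIN28B to LIN28A ratio in TPM was 0.0435 ± 0.0097 in hESC and 0.0497 ± 0.0086 in NMP-L (SD, n = 3 each), with overlapping libraries (two-sided exact permutation p = 0.4, also after adjustment over 5 ratios). LIN28A thus made up 95.8% ± 0.89 of the family's TPM in hESC and 95.3% ± 0.78 in NMP-L (SD, n = 3).

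The spread of LIN28B within groups followed a pattern shared by other members. hESC replicate 1 and NMP-L replicate 3 were the highest of their groups for LIN28B, IGF2BP3, HMGA2, TRIM71 and L1TD1, whose transcripts have a GC content of 38.0% to 47.4%. The same libraries were the lowest of their groups for HMGA1, at 61.6% GC, and the other 3 genes lay between 48.4% and 49.1%. Across genes, a library's deviation from its group mean was correlated with GC content. The r was -0.533 in hESC replicate 1 and -0.379 in NMP-L replicate 3. It was 0.362, 0.241, 0.423 and -0.0523 in hESC replicates 2 and 3 and NMP-L replicates 1 and 2. With log2 transcript length, r was 0.247 in hESC replicate 1 and 0.163 in NMP-L replicate 3. In the other libraries, in the same order, it was -0.283, 0.0202, -0.14 and -0.0214. Genes are not independent replicates, and these values are a description of the libraries. When every library was corrected for the GC content and length of transcripts, an alternative added after the data were seen, the test called all 9 genes, with LIN28A (-0.20, adjusted p = 0.0020), LIN28B and IGF2BP2 (-0.14, adjusted p = 0.018) as additional falls, against 6 genes without it. Calls over all genes also rose, from 55.8% to 65.1% of those tested. The same correction made only within groups called LIN28A in addition (adjusted p = 0.0085), with LIN28B (0.05, adjusted p = 0.51) and IGF2BP2 (-0.09, adjusted p = 0.093) not passing, where 66.8% of all tested genes were called.

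The IGF2BP proteins share their RNA-binding domains and many targets, yet their transcripts did not move together. IGF2BP3, on chromosome 7 from 23349828 to 23510110, measured 532.8, 409.2 and 471.4 CPM in hESC and 284.9, 300.2 and 320.9 CPM in NMP-L. All NMP-L libraries lay below all hESC libraries, with a fall of 0.64 on the log2 scale (SE 0.10, adjusted p = 1.7e-04). IGF2BP3 was 1.56-fold higher in hESC, and it was called under 19 of 20 other settings, the exception being GAPDH scaling (-0.08, adjusted p = 0.64).

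IGF2BP1, known for binding MYC and ACTB transcripts, was slightly higher in NMP-L. It lies on chromosome 17 from 47074747 to 47133507. The levels were 758.2, 730.6 and 767.0 CPM in hESC and 859.4, 860.0 and 832.9 CPM in NMP-L. The groups did not overlap, with a log2 fold change of 0.18 (SE 0.06, adjusted p = 0.034), a 1.13-fold rise. This call was close to the threshold and was made under 10 of 20 other settings. With all libraries it was lost under RLE scaling (adjusted p = 0.055), upper-quartile scaling (0.084), DESeq2 (0.088) and HPRT1 scaling, and with the replicate number as a block (0.12). It was also lost without any of 5 of the 6 libraries, with an adjusted p of 0.070, 0.064 and 0.072 without hESC replicates 1, 2 and 3 and of 0.095 and 0.090 without NMP-L replicates 1 and 2, while without NMP-L replicate 3 it was 0.026. Relative to HPRT1 counts the value was -0.12 (adjusted p = 0.64), above the median gene at -0.27.

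IGF2BP2, the member of the family that persists in adult tissue, did not pass the threshold. It lies on chromosome 3 from 185360918 to 185542830, with 229.6, 225.1 and 242.4 CPM in hESC and 226.2, 214.2 and 215.7 CPM in NMP-L. The highest NMP-L library lay above the lowest hESC library, and the log2 fold change was -0.09 (SE 0.07, adjusted p = 0.32, 95% interval -0.25 to 0.07). It was 0.47 relative to GAPDH counts (adjusted p = 0.0018), below the median gene at 0.59, and close to 0 with limma on TPM (0.01, adjusted p = 0.89).

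The balance within the IGF2BP family is given by shares and ratios. Of the family's summed TPM, IGF2BP3 held 44.7% ± 2.9 in hESC and 33.0% ± 1.7 in NMP-L, IGF2BP1 33.7% ± 1.7 and 43.6% ± 1.1, and IGF2BP2 21.6% ± 1.3 and 23.3% ± 0.82 (SD, n = 3 each). The most abundant transcript of the family was IGF2BP3 in all hESC libraries and IGF2BP1 in all NMP-L libraries. The IGF2BP3 to IGF2BP1 ratio was 1.5, 1.19 and 1.31 in hESC and 0.708, 0.745 and 0.821 in NMP-L. A ratio within a library does not depend on how libraries are scaled. The GC content of the transcripts differed, however, at 40.5% for IGF2BP3 and 49.1% for IGF2BP1. The highest of these ratios in each group were in hESC replicate 1 and NMP-L replicate 3, the libraries with the most negative GC correlations. The part of GC content in the ratios was not tested. The log2 ratio changed by -0.81 (SE 0.11) for IGF2BP3 to IGF2BP1, by -0.55 (SE 0.13) for IGF2BP3 to IGF2BP2 and by -0.26 (SE 0.03) for IGF2BP2 to IGF2BP1. In each of these 3 ratios the groups did not overlap, and the two-sided exact permutation p was 0.1, the smallest that 3 libraries against 3 can give (0.125 adjusted over the 5 ratios tested).

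**Figure D2:**
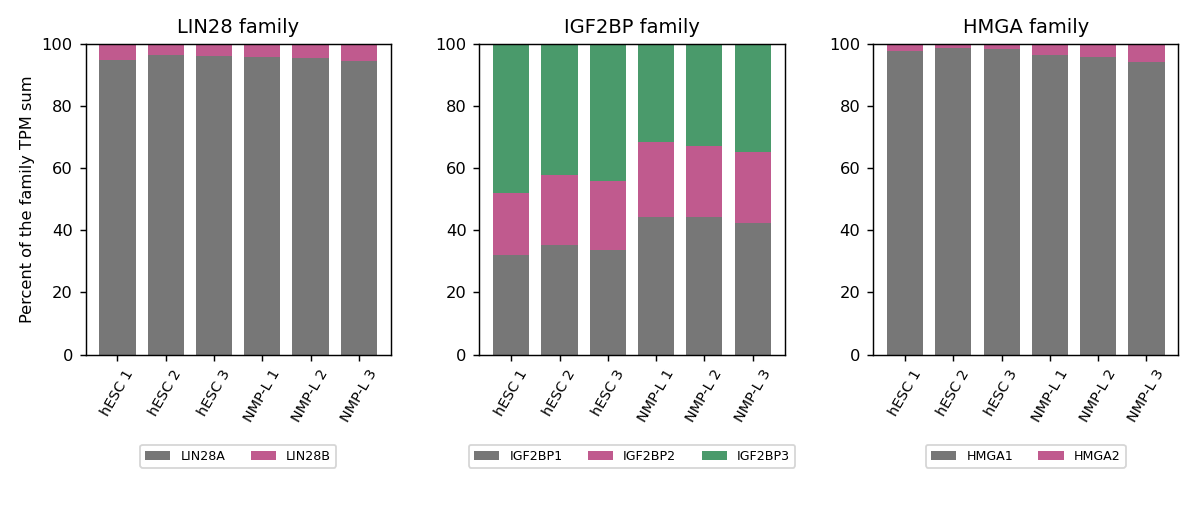
Percent of the summed TPM of the LIN28, IGF2BP and HMGA families (vertical) held by each gene in each of the 6 libraries. IGF2BP3 holds the largest share of its family in the hESC libraries and IGF2BP1 in the NMP-L libraries, while LIN28A and HMGA1 hold over 94% of their families in every library.

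The HMGA genes moved in opposite directions. HMGA2, an architectural factor known from growth control and from rearrangements in benign tumours, measured 149.4, 104.1 and 110.3 CPM in hESC and 212.0, 230.3 and 291.6 CPM in NMP-L. It lies on chromosome 12 from 66218240 to 66360071. Every NMP-L library was above every hESC library, and HMGA2 rose 2.02-fold (log2 fold change 1.01, SE 0.15, adjusted p = 1.2e-04). HMGA2 was the largest rise among the 9 genes and was called as higher under all 20 other settings, from 0.72 relative to HPRT1 counts to 1.58 relative to GAPDH counts.

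HMGA1, its paralogue and the most abundant of the 9 transcripts, was lower in NMP-L. It lies on chromosome 6 from 34204650 to 34214008, and the levels were 3077, 3473 and 3376 CPM in hESC and 2486, 2443 and 2174 CPM in NMP-L. The groups did not overlap and HMGA1 changed by -0.48 on the log2 scale (SE 0.08, adjusted p = 2.4e-04), a level 1.40-fold higher in hESC. The size depended on how the libraries were treated. After correction for GC content and length the change was -0.27 (adjusted p = 3.3e-04). With the same correction made only within groups it was -0.49 (adjusted p = 1.4e-06). Relative to GAPDH counts it was 0.07 (adjusted p = 0.35), where the median gene was at 0.59.

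The HMGA2 to HMGA1 ratio in TPM was 0.0218, 0.0139 and 0.0148 in hESC and 0.0389, 0.0426 and 0.0604 in NMP-L. The groups did not overlap and the ratio rose 2.82-fold (log2 difference 1.49, SE 0.28, two-sided exact permutation p = 0.1, the smallest possible, 0.125 over 5 ratios). HMGA2 remained the minor form throughout, at 1.65% ± 0.42 of the family in hESC and 4.51% ± 1.0 in NMP-L (SD, n = 3). The highest ratios of their groups were in hESC replicate 1 and NMP-L replicate 3, the libraries with the most negative GC correlations.

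The steepest falls were those of TRIM71 and L1TD1. TRIM71, a ubiquitin ligase and RNA-binding protein that represses target transcripts in early embryos, lies on chromosome 3 from 32859489 to 32939316. Its levels were 1378, 1032 and 1261 CPM in hESC and 524.6, 579.4 and 600.1 CPM in NMP-L. All NMP-L libraries were well below all hESC libraries, with a log2 fold change of -1.11 (SE 0.10, adjusted p = 3.7e-06), a level 2.15-fold higher in hESC.

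L1TD1, which binds RNA and is known from a complex with LIN28 in embryonic stem cells, lies on chromosome 1 from 62660521 to 62678000. It measured 976.5, 852.6 and 759.8 CPM in hESC and 251.3, 281.4 and 326.2 CPM in NMP-L. The groups were far apart, with a log2 fold change of -1.59 (SE 0.11, adjusted p = 4.1e-07), so that the hESC level was 3.01-fold higher. Both falls were called under all 20 other settings, which gave values from -1.41 to -0.54 for TRIM71 and from -1.88 to -1.03 for L1TD1. L1TD1, the only one of the 9 without a let-7 match, fell most, and TRIM71, with the most matches, fell next, whereas HMGA2, with 7 matches, rose. A relation between matches and changes was not tested.

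**Figure D3:**
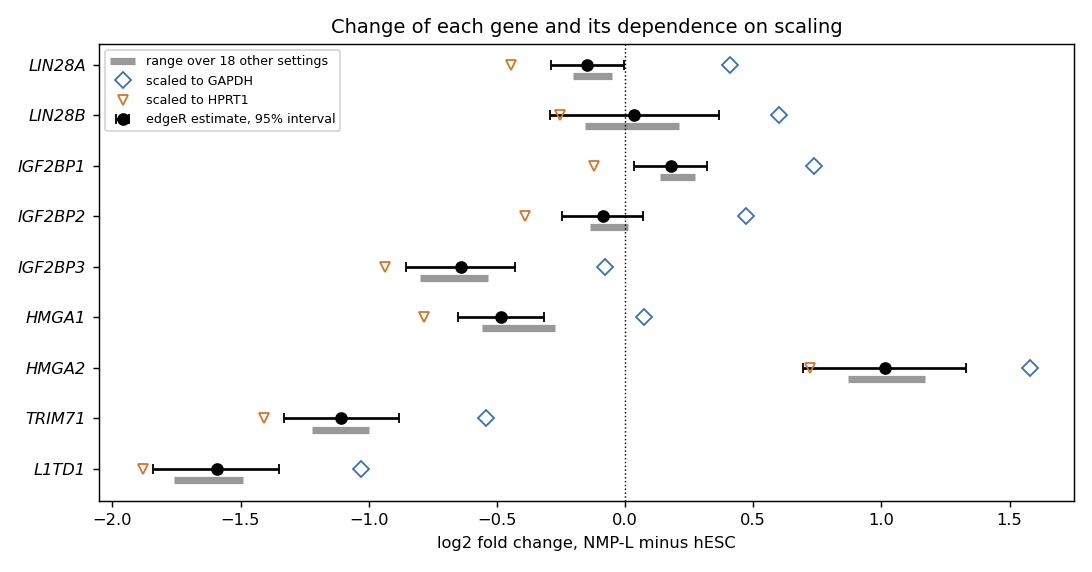
Log2 fold change of each gene (horizontal, NMP-L minus hESC) with its 95% interval from edgeR (black), the range over 18 other settings (grey bar) and the values relative to GAPDH counts (blue diamonds) and HPRT1 counts (orange triangles). HMGA2 stays above 0 and TRIM71 and L1TD1 below 0 in every setting, while LIN28A, LIN28B, IGF2BP1, IGF2BP2 and HMGA1 cross 0 with a reference gene.

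GAPDH itself was lower in NMP-L (-0.55, adjusted p = 1.4e-04), and scaling to it moved the median of all tested genes to 0.59, while scaling to HPRT1 moved it to -0.27. Read against those medians, HMGA2 and IGF2BP1 were higher than the median gene under both scalings. LIN28A, IGF2BP2, IGF2BP3, HMGA1, TRIM71 and L1TD1 were lower. LIN28B lay close to the median, at 0.601 against 0.586 with GAPDH and -0.253 against -0.27 with HPRT1. Such scaling shifts all genes by nearly the same amount, so these sides follow from the main fit. Expected counts of all 9 genes were whole numbers (within 0.005) in all libraries, against 8.44% of listed genes with a fractional count, so there was no sign of reads split with another gene. Of overlapping or related rows, LIN28B-AS1 had at most 7 counts, RPSAP52 (antisense to HMGA2) at most 1, and IGF2BP2-AS1 and the HMGA1P7 pseudogene 0. The strand setting of the counting was not given in the sources used here.

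Genes with the most similar pattern over the 6 libraries were sought for the largest rise and the largest fall among 10124 genes with a mean of at least 10 CPM, by Euclidean distance of mean-centred log2 CPM. HMGA2 was nearest to CBFB (distance 0.0853), ZC2HC1A (0.143) and CFL2 (0.155), with log2 fold changes of 1.01, 1.05 and 0.93. L1TD1 was nearest to IPW (0.240), SOX4 (0.251) and ACBD7 (0.252), with log2 fold changes of -1.63, -1.59 and -1.40.

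The seed matches were then set beside the changes of all tested genes. Of the 606 genes with an 8mer, 32.3% were higher and 24.3% lower in NMP-L, with a median log2 fold change of 0.10, against 28.4%, 28.4% and 0.01 for the 11574 genes with no match. Genes with an 8mer had longer UTRs, with a median of 3327 bases against 1071. After correction for GC content and length the medians were 0.04 and -0.01. These are counts over genes, given without a test, and 7 of the 9 genes are among the 606.

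**Figure D4:**
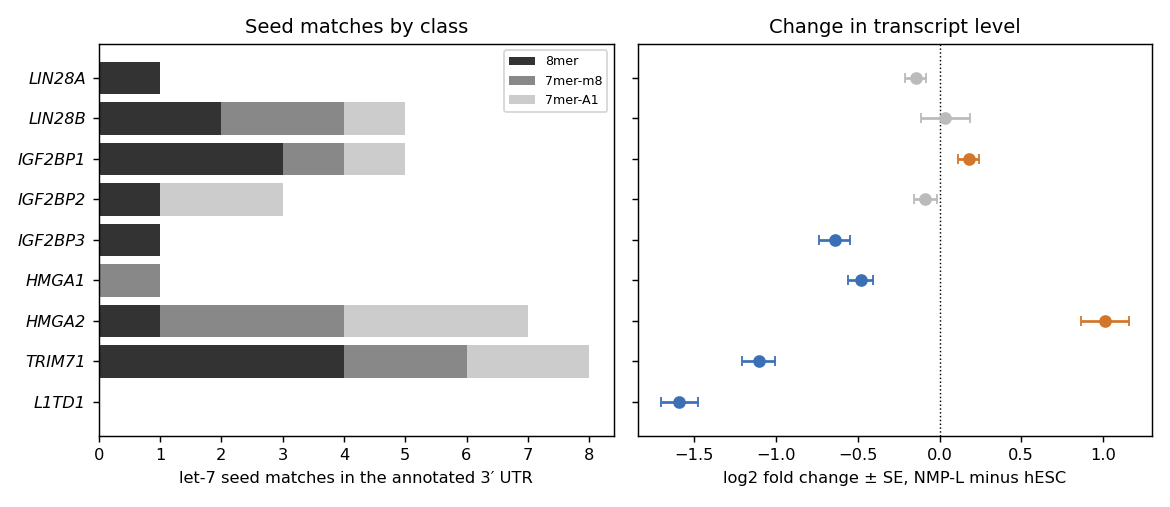
Left, number of let-7 seed matches by class in the annotated 3′ UTR of each gene; right, its log2 fold change ± SE (NMP-L minus hESC), with called rises in orange, called falls in blue and the rest in grey. Genes with 5 or more matches (LIN28B, IGF2BP1, HMGA2, TRIM71) include a gene that was not called, 2 rises and a fall.

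Other genes of the pathway were taken from 7 lists with 109 entries. Of 90 that could be tested, 21 were higher and 22 lower, or 47.8%, with a median log2 fold change of -0.003, against 55.8% and 0.03 over all genes tested. Scaling to GAPDH counts raised the number of list genes called from 43 to 78, and that of all tested genes from 8653 to 11455, of which 10027 were higher. In the lists that follow, genes with changes under 2-fold, IRS4 and IGF2 were chosen after their values were seen.

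Of 17 genes that process let-7 or act with it, 2 were higher and 3 lower, none by 2-fold (median 0.11). DICER1, which cuts the hairpin, was higher at 0.52 (SE 0.15, adjusted p = 0.010), as was PRKRA at 0.39, while TNRC6A, an Argonaute partner in silencing, was lower at -0.80 (SE 0.09, adjusted p = 1.1e-05), with AGO1 at -0.34 and TNRC6C at -0.28. The uridylyl transferases that LIN28 recruits to let-7 precursors, listed under their older symbols ZCCHC11 and ZCCHC6, did not pass, at -0.14 and 0.11. Of the rows for let-7 hosts and hairpins, 3 of 19 could be tested, all of them hosts. Among the untested hosts, MIR100HG had at most 16 counts in any library, MIRLET7BHG at most 4, MIRLET7DHG at most 1 and MIR99AHG 0. HUWE1, which holds the let-7f-2 and miR-98 hairpins in an intron, was lower at -0.30 (adjusted p = 0.0070), WDR82, which holds let-7g, was at -0.19 (adjusted p = 0.051), and SPACA6 was at 0.63 (adjusted p = 0.14). The 12 hairpin rows were at 0 counts in all libraries. Libraries of polyadenylated RNA do not capture mature microRNAs, so these rows do not speak to let-7 levels.

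Of 26 other genes known as let-7 targets, 7 were higher and 8 lower (median 0.08). PRTG, a cell adhesion protein of the early neural plate and mesoderm, rose from 9.43 ± 0.91 to 278.3 ± 40.1 CPM (SD, n = 3; log2 fold change 4.88, adjusted p = 8.1e-10). MYC and MYCN, growth-promoting transcription factors, fell by 2.02 and 1.79 on the log2 scale (adjusted p = 1.0e-08 and 1.9e-08). MYC went from 63.33 ± 1.36 to 15.63 ± 0.29 CPM and MYCN from 93.25 ± 3.9 to 26.97 ± 1.08 CPM (SD, n = 3). All kept their calls in all 20 other settings.

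In the insulin-like growth factor list, 3 of 10 tested genes were higher and 4 lower (median -0.19). IGF2, whose transcript gave the IGF2BP proteins their name, was at 7.53, 9.11 and 8.62 CPM in hESC and 9.92, 9.06 and 10.7 CPM in NMP-L, with overlapping groups (log2 fold change 0.24, SE 0.13, adjusted p = 0.14). The binding proteins, which hold the growth factors outside the cell, split. IGFBP5 (2.25) and IGFBP3 (1.58) rose and IGFBP6 (-2.16) and IGFBP2 (-1.63) fell on the log2 scale, with adjusted p from 3.8e-07 to 2.2e-05. IGFBP2 fell from 386.7 ± 61.8 to 125.2 ± 13.5 CPM (SD, n = 3). IGF2R, a receptor that clears IGF2, was higher at 0.77, while the docking proteins IRS1 (-0.36) and IRS4 (-1.11) were lower.

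IGF2BP proteins are also known as readers of m6A, a methyl mark on RNA. Of 14 genes for its writers, erasers and YTH readers, 2 were higher (VIRMA 0.38 and FTO 0.29) and 4 lower (METTL3 -0.92, YTHDF2 -0.47, RBM15B -0.28 and YTHDF1 -0.28), none by 2-fold (median 0.02). METTL3, the catalytic subunit of the writer, went from 96.8 ± 5.59 to 51.3 ± 3.44 CPM (SD, n = 3, adjusted p = 4.7e-06).

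Of 8 other high mobility group genes, 3 were higher and 1 lower (median -0.03). HMGB2 rose by 1.23 on the log2 scale (adjusted p = 9.3e-08) and HMGN2 by 1.06 (adjusted p = 3.5e-07), the latter with fractional counts, so reads may be shared with its copies. HMGN4 was higher at 0.35 and HMGN3 lower at -0.79. Of 12 TRIM-NHL relatives and other RNA-binding proteins of stem cells, 4 were higher and 1 lower (median -0.001). MSI1, a translational regulator of neural progenitors, rose by 1.3 (adjusted p = 2.6e-06) and TRIM2, a relative of TRIM71, by 1.21 (adjusted p = 1.4e-05). MSI2 (0.49) and PUM2 (0.40) were also higher and TRIM3 (-0.58) lower.

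**Figure D5:**
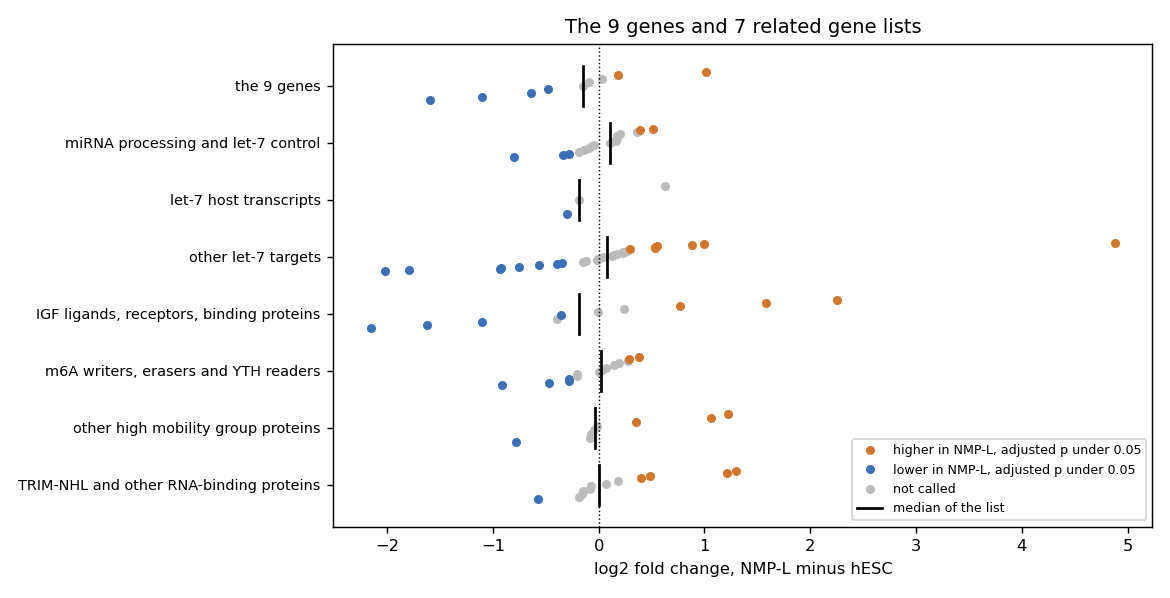
Log2 fold change (horizontal, NMP-L minus hESC) of the 9 genes and of the tested genes of 7 related lists, each point a gene, coloured by call, with the list median as a black bar. List medians lie between -0.19 and 0.11, and PRTG, at 4.88, stands far from the rest.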

How the data were processed

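RNA-seq of polyadenylated RNA (single-end reads of 76 bp) was analysed for 3 hESC and 3 NMP-L libraries. The authors deposited gene-level expected counts from RSEM, not normalized between libraries, and TPM, scaled by effective transcript length. The submitters' processing notes name cutadapt 1.9.1, STAR 2.5.2a, RSEM 1.3.0, DESeq2 1.12.3 and hg19. No per-sample column was left unused. Counts were rounded, filtered with filterByExpr (minimum count 10) and tested with edgeR 4.0.16 in R 4.3.3 (TMM, glmQLFTest), with adjusted p under 0.05 as the threshold. The SE is the log2 fold change over the square root of F. Ratios used TPM with exact permutation tests, and counting floors were 3 counts. DESeq2 1.42.0 and limma 3.58.1 gave alternatives, along with other scalings, filters, pseudocounts (0.1 and 1), the replicate block and each library left out. A lowess correction (span 0.3) for GC content and length, within groups and with the block too, was chosen after seeing the data. Symbols were matched to GENCODE 44, 22060 directly and 1019 through RefSeq synonyms. Scripts were tested on simulated data. Members and lists were chosen with earlier results of these data known. Named genes are the 9 genes, up to 4 list genes with the largest called changes of at least 2-fold per list, GAPDH, HPRT1, POU5F1, NANOG, T and the 3 nearest patterns.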

Additional observations from a re-analysis of the deposited data

How the results depend on the processing

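HMGA2, TRIM71 and L1TD1 kept their direction and their side of the threshold under all 20 alternatives, and IGF2BP3 and HMGA1 under 19. The number of the 9 genes called lay between 5 and 9, and calls over all genes between 7087 and 11455, with 10099 in the setting that called 9. Signs turned for LIN28A (0.41), IGF2BP2 (0.472) and HMGA1 (0.0721) relative to GAPDH counts, for LIN28B (-0.253) and IGF2BP1 (-0.122) relative to HPRT1 counts, and for IGF2BP2 with limma on log2(TPM + 0.1) and log2(TPM + 1) (0.0118 and 0.0117). GAPDH and HPRT1 scaling moved the median of all genes to 0.586 and -0.27. Such scaling shifts all genes by nearly the same amount, so a gene's side of that median is no separate check. LIN28B ranged from -0.11 to 0.212 with each library left out, and was -0.157 after GC content and length correction. The list genes called rose from 43 to 78 relative to GAPDH counts, where calls over all genes rose from 8653 to 11455. The causes were not tested.

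With the replicate number as a block, 7560 genes in all were called, 5 of the 9 genes and 39 list genes, IGF2BP1 being lost (adjusted p = 0.12). With the replicate block and GC content and length correction, LIN28B was at -0.153. Same-numbered libraries deviated from their group means with correlations of -0.367, -0.0575 and -0.134. The labels do not say whether same-numbered libraries were paired, and these values cannot settle it. With 3 libraries per group, small changes such as that of LIN28A depend on the scaling.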
